A study of Sus scrofa with 6 samples.

Results

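Keratins are the intermediate filament proteins of epithelial cells. The genes described here are 6 structural genes, chosen by name among the 10915 genes with values in the deposited table: the simple-epithelium keratins KRT8 and KRT19, the stratified-type keratins KRT14 and KRT9, the small proline-rich gene SPRP and the intermediate filament gene VIM. They were chosen with their values in these libraries in view, so every difference between the groups below is a description of these genes and not a test of them. All 6 had a row of their own and passed the filter on low values (average FPKM of 1 or more). FPKM, the unit the values were taken to be in, scales sequenced fragments by transcript length and library size, so levels can be set side by side between genes.

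RNA was measured in pig endometrial epithelial cells, which line the uterus, grown as a primary culture at passage 3 from uteri of slaughtered animals. The exosome group (3 libraries) received 10 µg per well of exosomes for 48 h, membrane vesicles precipitated from the sperm-rich fraction of boar seminal fluid. For the seminal fluid, the labels of each exosome library give n = 3. The control group (3 libraries) received no exosomes, and the labels name no vehicle for it. No label gives the age or breed of the animals or ties a library to a uterus, so the spread between libraries may be technical, and the depth is unknown because the values are FPKM. Exosome replicate 2 lay nearer control replicates 2 and 3 (SD of log2 ratios over genes 0.203 and 0.201) than exosome replicates 1 and 3 (0.244 and 0.251). Listed genes that passed the test once exosome replicate 2 was left out are named with their group of genes. Leaving it out drops the exosome library most like control replicates 2 and 3, so nothing is read from a gene passing only then.

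Every keratin filament is built from pairs of an acidic type I and a basic type II chain. Simple epithelia such as the uterine lining use mainly the type II keratin KRT8 with the type I keratins KRT18 and KRT19, while the basal layer of stratified epithelia uses KRT5 with KRT14. KRT9 is a type I keratin of thickened palm and sole skin, and small proline-rich proteins are cross-linked into the cornified envelope of squamous cells. Vimentin, from VIM, is the filament protein of mesenchymal cells, and epithelial cells in culture often make it too.

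KRT14, KRT9 and SPRP had larger differences between the groups than KRT8, KRT19 and VIM. KRT9 averaged 26.2%, KRT14 32.4% and SPRP 54.5% less FPKM in exosome than in control libraries. KRT8, KRT19 and VIM averaged 7.80%, 8.41% and 9.24% less, although KRT19 was slightly higher in the exosome group under quantile normalization. In KRT8, KRT14, KRT9 and SPRP every exosome library lay below every control library, and in KRT19 and VIM the groups overlapped. With limma on log2(FPKM + 1), 0 of the 6 passed an adjusted p of 0.05 over the 10846 genes tested, where 0.0% of all genes passed. Before adjustment 4 of the 6 were lower and 0 higher at p under 0.05, where 7.5% of all genes tested were lower and 5.06% higher. The exosome group lay wholly below the control group in 4 of the 6 and wholly above it in 0, against 10.4% and 8.29% of all genes tested. Since the genes were picked on this contrast, nothing is read from these shares. A lower level in a bulk library can come from fewer cells of a type or from less RNA per cell, which cannot be told apart here.

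**Figure D1:**
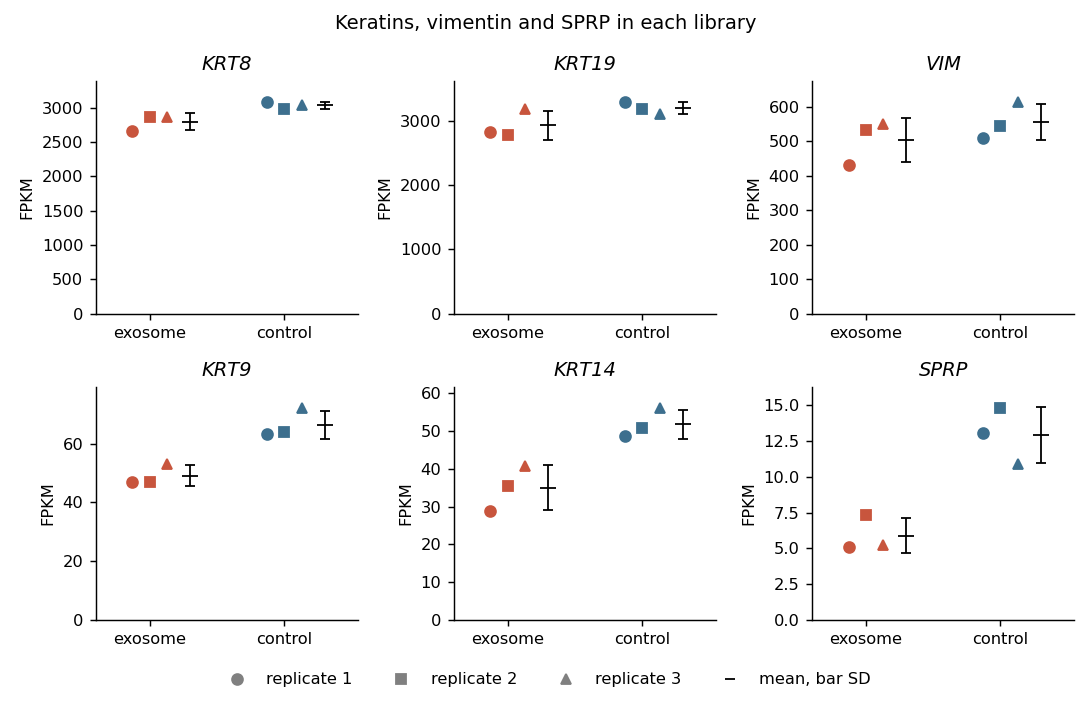
FPKM of each of the 6 genes in the 3 exosome and 3 control libraries, with replicates by symbol and the group mean with its SD beside them; each panel has its own axis from 0. The exosome libraries of KRT14 sit between 28.9 and 40.7 FPKM, all below the control libraries, while those of VIM, between 432.6 and 550.8 FPKM, overlap the controls.

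The simple keratins were among the most abundant transcripts of the culture. KRT19 (ENSSSCG00000017448) ranked 24th and KRT8 (ENSSSCG00000000252) 28th by mean FPKM over the 6 libraries. In the RefSeq gene table of the Sscrofa11.1 assembly, matched by symbol, KRT8 lies at chr5:18172423-18180277 and KRT19 at chr12:21115453-21119115. KRT8, the main type II keratin of simple epithelium, had 2664, 2873 and 2864 FPKM in exosome replicates 1, 2 and 3, against 3083, 2988 and 3039.7 FPKM in control replicates 1, 2 and 3. The highest exosome library lay just under the lowest control library. KRT8 averaged 2800.2 ± 118 FPKM in exosome and 3037 ± 48.0 FPKM in control libraries (SD, n = 3 each), a log2 change of -0.12 (SE 0.046).

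KRT19, a small type I keratin without most of the usual tail domain, had 2817, 2778 and 3179.6 FPKM in the exosome libraries, against 3286, 3185 and 3109 FPKM in the control libraries. Exosome replicate 3 lay inside the control range and the other two below it. KRT19 averaged 2925 ± 222 FPKM in exosome and 3193 ± 88.8 FPKM in control libraries (SD, n = 3 each), a log2 change of -0.13 (SE 0.060). Under quantile normalization, which sets every library to the same distribution, the direction of KRT19 turned (log2 change 0.026), and that of KRT8 came to -0.0087.

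KRT18, a type I keratin that pairs with KRT8 and is no member of the chosen genes, was at 1222 ± 35.6 FPKM in exosome and 1255 ± 15.0 FPKM in control libraries (SD, n = 3 each; log2 change -0.039), and its groups overlapped. KRT8, KRT18 and KRT19 made up 0.967%, 0.968% and 1.03% of all FPKM in exosome replicates 1, 2 and 3, against 1.04%, 1.01% and 1.02% in the control replicates. On this share the groups overlapped. Of the 7 simple-epithelium keratins listed, these 3 had values, with a median log2 change of -0.12 (3 lower, or 2 lower and KRT19 higher under quantile normalization), where the median of all genes tested was -0.00229. None of the 3 passed over all genes tested in limma. Before adjustment 1 (KRT8) was lower at a p under 0.05, against 7.5% of all genes tested. The 3 include KRT8 and KRT19, picked on this contrast, so nothing is read from this median or count.

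The balance between the keratin types overlapped between the groups. The ratio of type II FPKM (KRT8 and KRT5) to type I FPKM (KRT18, KRT19, KRT14, KRT9, KRT13 and KRT10) was 0.659 ± 0.0398 in exosome and 0.662 ± 0.0126 in control libraries (SD, n = 3 each). KRT19 over KRT8 was 1.04 ± 0.0725 in exosome and 1.05 ± 0.0249 in control libraries. KRT19 was the higher of this pair in 5 of 6 libraries, with exosome replicate 2 the exception, so their order was not fixed beyond the spread. Below them the order ran KRT18, VIM, KRT9, KRT14, KRT13, SPRP, KRT10 and KRT5, with each gene above the next in 6 of 6 libraries.

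KRT14 (ENSSSCG00000017433), the type I keratin of basal stratified cells, stood far below the simple keratins. It had 28.9, 35.5 and 40.7 FPKM in exosome replicates 1, 2 and 3, against 48.6, 50.8 and 56.0 FPKM in control replicates 1, 2 and 3. All 3 exosome libraries were lower, and exosome replicate 1 was the lowest of them. KRT14 averaged 35.0 ± 5.93 FPKM in exosome and 51.8 ± 3.81 FPKM in control libraries (SD, n = 3 each), a log2 change of -0.56 (SE 0.12), the 47th lowest of the 10846 genes tested. Leaving out single libraries moved the log2 change between -0.68 (without exosome replicate 3) and -0.43 (without exosome replicate 1).

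KRT9 (ENSSSCG00000017447) had 47.0, 47.0 and 53.2 FPKM in the exosome libraries, against 63.5, 63.9 and 72.1 FPKM in the control libraries. The groups were separate, with exosome replicates 1 and 2 almost level. KRT9 averaged 49.0 ± 3.56 FPKM in exosome and 66.5 ± 4.85 FPKM in control libraries (SD, n = 3 each), a log2 change of -0.43 (SE 0.073), the 113th lowest of the genes tested. KRT9 was above KRT14 in 6 of 6 libraries. Type I keratins share long stretches of sequence, and the way reads that match several of them were assigned is not given in the sources used here, so the split between KRT14, KRT9 and their relatives is uncertain. The identifiers of KRT14 and KRT9 matched no gene name, and RefSeq held no entry under either symbol. Both names thus rest on the deposited symbols alone.

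The other stratified-type keratins with values did not all lie with this pair. KRT5, the type II partner of KRT14, was near the bottom of the table, at 0.794, 1.05 and 0.983 FPKM in the exosome libraries and 1.13, 1.36 and 1.51 FPKM in the control libraries. Its exosome libraries were all lower (log2 change -0.27, which the pseudocount of 1 shrinks at this level). KRT14 thus had 37.2 ± 3.86 times the FPKM of KRT5 in exosome and 39.1 ± 3.34 times in control libraries (SD, n = 3 each). KRT10, a type I keratin of the upper epidermal layers, was at 2.01 ± 0.0839 FPKM in exosome and 2.37 ± 0.252 FPKM in control libraries, with overlap.

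KRT13, the type I keratin of moist stratified linings, had 26.4, 14.8 and 29.0 FPKM in the exosome libraries, against 22.3, 21.7 and 23.4 FPKM in the control libraries. Exosome replicate 2 was the lowest of all 6 libraries and the other exosome libraries were the highest, so the log2 change of 0.0014 (SE 0.21) averages over a split group. Without exosome replicate 2 it was 0.29 (limma adjusted p = 0.0700). Of 46 stratified-type keratins listed, the 5 with values had a median log2 change of -0.27, with 4 lower and 1 higher. None passed over all genes tested in limma. At p under 0.05 before adjustment 3 were lower and 0 higher, against 7.5% and 5.06% of all genes tested. The 5 include KRT14 and KRT9, picked on this contrast, so nothing is read from this count.

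**Figure D2:**
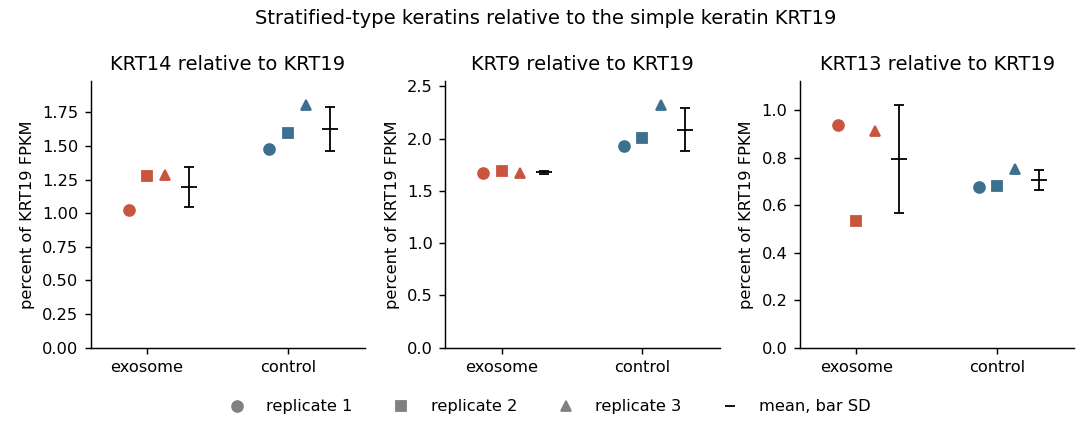
FPKM of KRT14, KRT9 and KRT13 as a percent of the KRT19 FPKM of the same library, for the 3 exosome and 3 control libraries, with the group mean and SD. KRT14 and KRT9 sit lower in every exosome library, while KRT13 spans 0.531% to 0.937% in the exosome group and overlaps the controls.

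Set against the simple keratins of the same library, KRT14 and KRT9 were lower in the exosome group. KRT14 was at 1.02%, 1.28% and 1.28% of the KRT19 FPKM in exosome replicates 1, 2 and 3, against 1.48%, 1.59% and 1.802% in control replicates 1, 2 and 3. KRT9 was at 1.67%, 1.69% and 1.67% of KRT19 in the exosome libraries, against 1.93%, 2.01% and 2.32% in the control libraries. In both genes the groups were separate. A ratio within a library does not depend on how the library was scaled to its total. The mean log2(FPKM + 1) of KRT14 and KRT9 less that of KRT8 and KRT19 averaged -6.08 ± 0.0944 in exosome and -5.71 ± 0.123 in control libraries (SD, n = 3 each), a difference of -0.37. With all 8 keratins found by name in the table, 5 stratified-type against 3 simple, the difference was -0.19. Its size thus rests on which stratified-type keratins are counted.

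The ratio of KRT14 to KRT9 was 0.615, 0.754 and 0.766 in the exosome libraries and 0.766, 0.794 and 0.777 in the control libraries. Exosome replicate 1 stood apart with the least KRT14 for its KRT9. The simple keratins KRT8, KRT18 and KRT19 held 98.4% ± 0.127 of the FPKM of the 8 keratins in exosome and 98.1% ± 0.149 in control libraries (SD, n = 3 each), so by abundance the keratin pool was of the simple type in every library.

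SPRP (ENSSSCG00000022269) had the lowest level of the 6 genes and the widest gap between the groups. RefSeq lists the symbol at chr4:96588991-96590696 of Sscrofa11.1 with SPRR1B as a synonym, a protein cross-linked into the envelope of squamous cells. SPRP had 5.10, 7.31 and 5.23 FPKM in exosome replicates 1, 2 and 3, against 13.1, 14.8 and 10.9 FPKM in control replicates 1, 2 and 3. All exosome libraries were lower, and exosome replicate 2 was the one nearest the controls. SPRP averaged 5.88 ± 1.24 FPKM in exosome and 12.9 ± 1.95 FPKM in control libraries (SD, n = 3 each), a log2 change of -1.02 (SE 0.15), the 7th lowest of the genes tested. Without exosome replicate 2 the log2 change was -1.17 and SPRP passed over all genes tested (limma adjusted p = 0.00856). In that fit 2.74% of all genes passed and 1.88% passed as lower. With any other single library left out, the limma adjusted p of SPRP lay between 0.186 and 0.550. SPRP was picked on this contrast, and the fit drops the exosome library nearest the controls, so nothing is read from its passing.

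Other genes of the cornified envelope and squamous differentiation lay on both sides of 0. Of 38 listed, 15 had values, with a median log2 change of -0.081, 9 lower and 6 higher (median -0.048 without exosome replicate 2), and 0 passed over all genes tested in limma. Before adjustment 3 were lower at p under 0.05 and 0 higher, where 7.5% of all genes tested were lower and 5.06% higher. SPRP, picked on this contrast, is among the 3. IVL, involucrin, an early envelope scaffold, was at 2.01 ± 0.278 FPKM in exosome and 2.72 ± 1.16 FPKM in control libraries. TGM1, the transglutaminase that joins envelope proteins, was at 30.7 ± 2.20 FPKM in exosome and 28.3 ± 1.88 FPKM in control libraries. In IVL and TGM1 the groups overlapped.

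Among the calcium-binding S100 proteins of this list, S100A14, S100A16 and S100A12 were abundant. S100A14 was at 629.0 ± 54.5 FPKM in exosome and 700.0 ± 27.1 FPKM in control libraries (log2 change -0.16). S100A16 was at 384.4 ± 12.8 FPKM in exosome and 419.1 ± 2.00 FPKM in control libraries (log2 change -0.12), with every exosome library lower. S100A12, a calgranulin, had 436.8, 349.0 and 446.7 FPKM in the exosome libraries, against 374.4, 346.7 and 369.0 FPKM in the control libraries. As in KRT13, exosome replicate 2 lay apart from the other exosome libraries. Without that library, 2 of the 15 passed as lower over all genes tested (SPRP and the elastase inhibitor PI3) and 2 as higher (the calgranulins S100A8 and S100A12). In that fit 1.88% of all genes passed as lower and 2.74% in either direction.

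VIM (ENSSSCG00000011033, chr10:43516441-43526172 in the RefSeq table of Sscrofa11.1) had 432.6, 532.4 and 550.8 FPKM in exosome replicates 1, 2 and 3, against 511.3, 544.9 and 614.0 FPKM in control replicates 1, 2 and 3. Exosome replicate 1 was the lowest library, and the other two lay within the control range. VIM averaged 505.3 ± 63.6 FPKM in exosome and 556.7 ± 52.4 FPKM in control libraries (SD, n = 3 each), a log2 change of -0.14 (SE 0.10). Its size depended on single libraries and on scaling, at -0.036 without exosome replicate 1, -0.071 without control replicate 3 and -0.088 under quantile normalization. VIM over KRT8 was 0.180 ± 0.0156 in exosome and 0.183 ± 0.0181 in control libraries, and the groups overlapped.

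The remaining filament genes with values encode the nuclear lamins and 2 less abundant cytoplasmic filament proteins. LMNA, the lamin of differentiated cells, was at 436.7 ± 18.7 FPKM in exosome and 476.5 ± 21.5 FPKM in control libraries (SD, n = 3 each; log2 change -0.13), and every exosome library was lower. LMNB2 was at 32.2 ± 0.887 FPKM in exosome and 30.3 ± 0.369 FPKM in control libraries, with every exosome library higher, and LMNB1 was at 88.0 ± 4.98 and 85.2 ± 1.28 FPKM in exosome and control libraries. With SYNM and SYNC, the list had 6 of 16 genes with values, a median log2 change of 0.015, 3 lower and 3 higher. In limma 0 passed over all genes tested. Before adjustment 1 was lower at p under 0.05 and 0 higher, against 7.5% and 5.06% of all genes tested.

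Keratin filaments end at desmosomes, the junctions that join neighbouring epithelial cells. Of 20 desmosome and linker genes listed, 12 had values, with a median log2 change of -0.047, 9 lower and 3 higher (7 lower and 5 higher under quantile normalization, where DSP and PKP2 changed sign). Without exosome replicate 2 the median was -0.11. None passed over all genes tested in limma. Before adjustment 1 was lower at p under 0.05 and 0 higher, against 7.5% and 5.06% of all genes tested. DSP, desmoplakin, which anchors keratin to the plaque, was at 124.9 ± 16.3 FPKM in exosome and 125.1 ± 10.4 FPKM in control libraries (SD, n = 3 each). JUP, plakoglobin, was at 252.9 ± 27.3 FPKM in exosome and 279.5 ± 12.9 FPKM in control libraries, with overlap. EVPL, envoplakin, a plakin of both desmosome and cornified envelope, was at 19.8 ± 0.433 FPKM in exosome and 21.9 ± 1.20 FPKM in control libraries, and its partner PPL, periplakin, at 81.2 ± 1.93 and 80.6 ± 2.37 FPKM in exosome and control libraries. TRIM29 was at 16.7 ± 1.17 FPKM in exosome and 18.9 ± 0.593 FPKM in control libraries. In EVPL and TRIM29 every exosome library was lower.

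**Figure D3:**
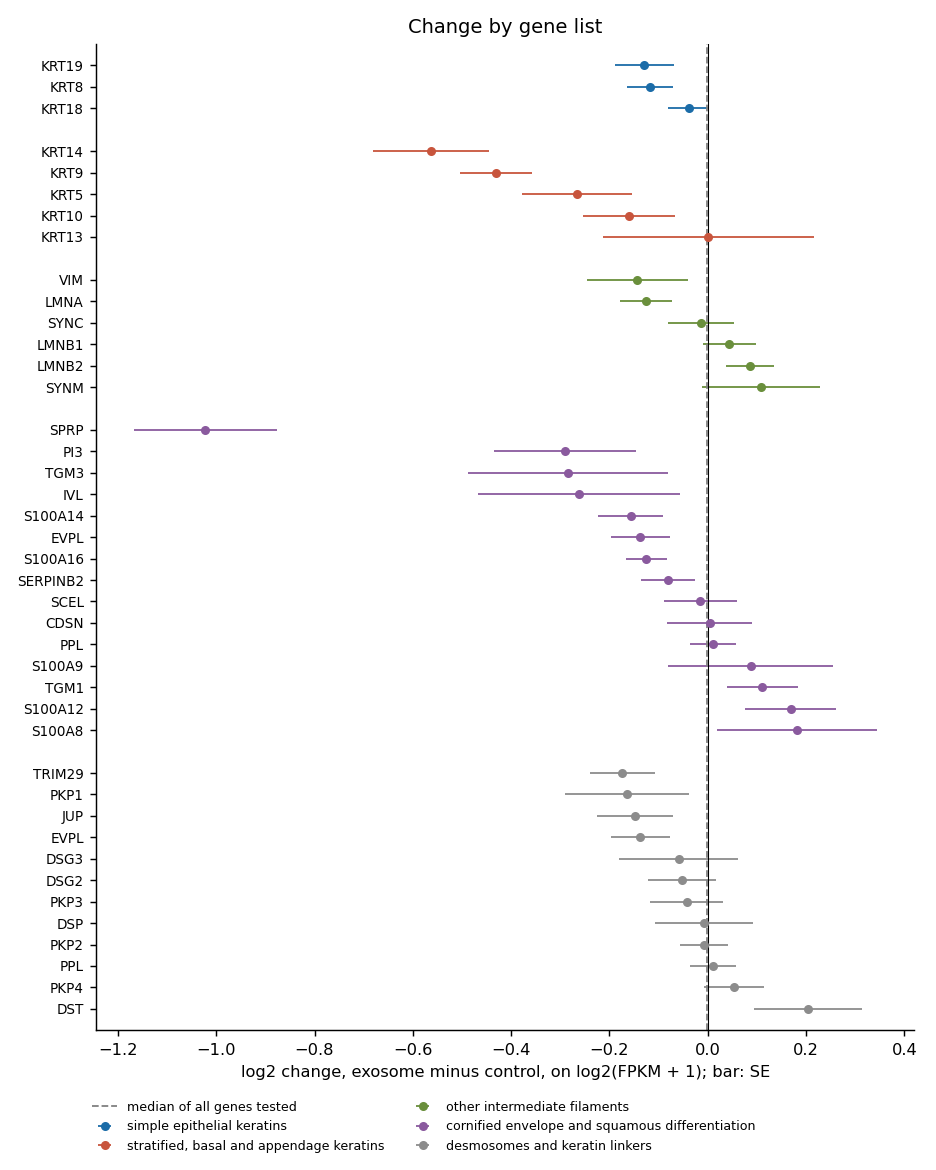
Log2 change of exosome minus control on the log2(FPKM + 1) scale with its SE, for the genes with values in 5 lists of keratin and related structural genes; the dashed line is the median of all genes tested. SPRP, KRT14 and KRT9 lie farthest to the left at -1.02, -0.56 and -0.43, and 9 of the 12 desmosome genes lie left of 0, 7 under quantile normalization.

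Regulators of epithelial and squamous identity, most of them transcription factors, had mostly small negative log2 changes. Of 26 listed, 14 had values in 15 rows, since KLF5 had 2, and the median log2 change was -0.12, with 13 lower and 2 higher. None passed over all genes tested in limma. At p under 0.05 before adjustment 3 were lower and 0 higher, against 7.5% and 5.06% of all genes tested. ELF3, an ETS factor of epithelial cells, was at 165.5 ± 9.22 FPKM in exosome and 195.0 ± 6.18 FPKM in control libraries (SD, n = 3 each; log2 change -0.24), and every exosome library was lower. Without exosome replicate 2, ELF3 alone of this list passed over all genes tested, as lower (log2 change -0.28, limma adjusted p = 0.0304). In that fit 1.88% of all genes passed as lower. EHF, of the same family, was at 126.1 ± 2.84 FPKM in exosome and 139.0 ± 9.49 FPKM in control libraries, with overlap.

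The summed markers of epithelium and of stroma were also lower in the exosome libraries, and so was the FPKM total over all genes. That total was 690258 to 711250 in exosome and 721273 to 732922 in control libraries. The 10 of 14 endometrial epithelial markers with values, which include KRT8, KRT18 and KRT19, summed to between 11710 and 12886 FPKM in exosome libraries and between 13676 and 14114 FPKM in control libraries. The median log2 change of the 10 was -0.22, or -0.13 under quantile normalization. Of the 10, 9 had a lower mean log2 value in exosome libraries and 1 a higher one (8 and 2 under quantile normalization, where KRT19 changed sign). The higher one was EPCAM, the epithelial cell adhesion molecule, listed as TACSTD1, at 357.9 ± 15.3 FPKM in exosome and 345.8 ± 12.5 FPKM in control libraries (SD, n = 3 each; log2 change 0.049), with overlap. In limma 0 of the 10 passed over all genes tested. Before adjustment 7 were lower and 0 higher at p under 0.05, against 7.5% and 5.06% of all genes tested. KRT8, picked on this contrast, is among the 7, and KRT19, likewise picked, is among the 10. The list was also chosen with earlier results of these data known, so nothing is read from this count. Without exosome replicate 2, 3 of the 10 passed as lower over all genes tested in limma, against 1.88% of all genes. They were CD24 (log2 change -0.35, limma adjusted p = 0.0122), CLDN4 (-0.45, limma adjusted p = 0.0378) and ELF3. In these 3 genes the fit drops the exosome library nearest the controls, so nothing is read from their passing. With all libraries CD24, a surface glycoprotein, was at 3383 ± 401 and CLDN4, a tight junction claudin, at 811.9 ± 117 FPKM in exosome libraries, against 4008 ± 76.2 and 1029 ± 33.9 FPKM in control libraries. The 5 of 12 stromal markers with values, which include VIM, summed to between 2274 and 2494 FPKM in exosome libraries and between 2788 and 3042 FPKM in control libraries, mostly from CD90, at 1849 ± 69.4 and 2328 ± 93.7 FPKM in exosome and control libraries. CD90 likewise passed as lower without exosome replicate 2 (limma adjusted p = 0.0282). In CD90 every exosome library was lower, while in each of the other stromal markers with values the groups overlapped. COL1A2, a fibrillar collagen chain, was at 47.5 ± 2.46 FPKM in exosome and 50.9 ± 4.67 FPKM in control libraries. COL1A1, another collagen chain of fibroblasts, had 20.4, 6.27 and 0.887 FPKM in the exosome libraries, against 2.48, 30.0 and 14.7 FPKM in the control libraries, so libraries of both groups held very unequal amounts of it. CDH1, KRT7, PAX8 and FOXA2 of the epithelial list and PDGFRA, DCN and LUM of the stromal list were not analysed here. Neither list's part in the differences of the keratins was tested.

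Of the 7 markers of basal or squamous epithelium, 3 had values, with KRT14 at the top, DSG3, a desmosomal cadherin, at 17.2 ± 1.08 FPKM in exosome and 18.2 ± 3.43 FPKM in control libraries (SD, n = 3 each), and KRT5 near 1 FPKM. Their sum lay between 45.9 and 58.7 FPKM in exosome and between 65.0 and 79.5 FPKM in control libraries. Most of this sum is KRT14, picked on this contrast, and in DSG3 the groups overlapped, so nothing is read from the sum. Of 5 smooth muscle markers 1 had values, the actin-binding protein gene TAGLN, and 1 marker does not show that such cells were present. TAGLN was at 78.5, 140.1 and 92.5 FPKM in the exosome libraries, against 127.2, 130.4 and 140.9 FPKM in the control libraries. Exosome replicate 2 lay inside the control range and the other exosome libraries below it. The log2 change of TAGLN was -0.40 (limma adjusted p = 0.418). Without exosome replicate 2 it was -0.63, and TAGLN passed over all genes tested (limma adjusted p = 0.0161). In that fit 1.88% of all genes passed as lower. The fit drops the exosome library inside the control range, so nothing is read from the passing of TAGLN. The endothelial marker KDR was at 1.07 ± 0.0983 FPKM in exosome and 1.58 ± 0.354 FPKM in control libraries. The leukocyte markers, 3 of 6, summed to between 9.49 and 12.5 FPKM in exosome and between 10.8 and 12.3 FPKM in control libraries, and 0 of 5 sperm markers had values.

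By the pattern over the 6 libraries, each of the 6 had its own nearest genes. Among named genes averaging 10 FPKM or more, KRT14 was most like CIRBP, ANKRD35 and BCAS1 (Pearson r from 0.993 to 0.997 on log2(FPKM + 1)), and KRT9 most like ORAI2, ARL6IP5 and HYI (0.987 to 0.992). KRT8 was most like TECR, BLMH and SMARCB1 (0.994 to 0.998), KRT19 most like SERINC2, ZDHHC12 and MOSPD3 (0.984 to 0.993), and SPRP most like CYB5R3, GPR110 and QSOX1 (0.991 to 0.997). ANKRD27 and GGTA1 were among the 3 genes most like VIM (0.972 and 0.967). With only 6 libraries such values are common, and 201 genes exceeded 0.9 for KRT14. Among the 6 genes the closest pair was KRT14 and KRT9, at 0.956. These are descriptions across libraries that share the difference between the groups.

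**Figure D4:**
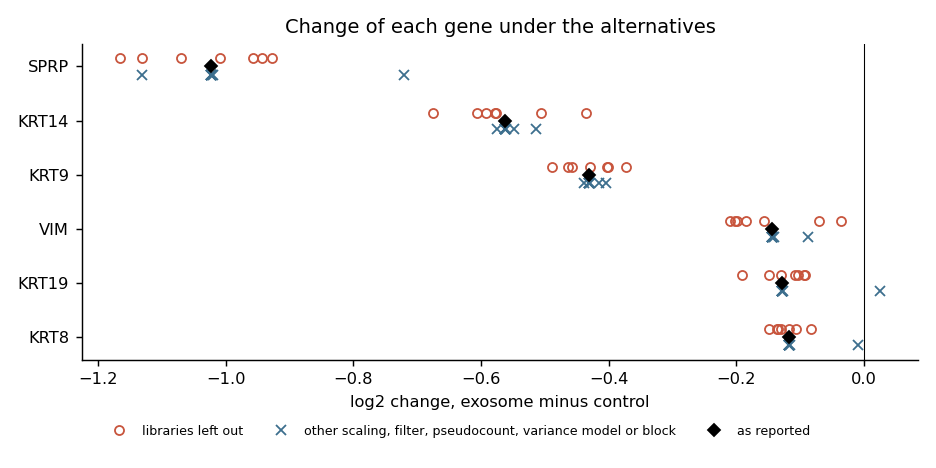
Log2 change of each of the 6 genes as reported (black diamonds), with libraries left out (open circles) and under other scaling, filter, pseudocount, variance model or replicate block (crosses). SPRP, KRT14 and KRT9 stay at -0.37 or lower throughout, while KRT19 reaches 0.026 under quantile normalization.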

How the data were processed

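The authors deposited 1 table, read here as FPKM because the submitters' processing notes name Cufflinks, with bcl2fastq 1.8.4, TopHat and Sscrofa11.1. Its header gives no unit. The annotation and the versions of TopHat and Cufflinks are not known from the sources. The table held 10916 rows, 1 without values, and no value of 0 (lowest 0.0882 FPKM). No sequence is printed. Of the 6 genes' identifiers, 2 matched the gene name table (KRT8 and VIM). KRT19 and SPRP were found in RefSeq by symbol only, and KRT14 and KRT9 were found in neither source.

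Values were tested as log2(FPKM + 1) with limma 3.58.1 in R 4.3.3 (two-sided moderated test with an intensity trend, Benjamini-Hochberg over the 10846 genes averaging 1 FPKM or more). A fold on this scale understates low genes. The script was tested on simulated data. The genes and lists were chosen with earlier results of these data known. Named were the 6 genes, from each list genes among the 3 highest and the 3 with the smallest p, and the 3 genes most like each; KRT10, IVL, TGM1, S100A8, PI3, COL1A1, EPCAM, PKP2, SYNC and SYNM were named after their values were seen. The fit was repeated with libraries left out, with a block for the replicate number, and with the pseudocount, filter, scaling or intensity trend changed. The separate values of 2 genes that this rule takes are not reported here. Figures used Python 3.11.15 and matplotlib 3.10.9.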

Additional observations from a re-analysis of the deposited data

How the results depend on the processing

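The log2 changes of KRT8, KRT14, KRT9, SPRP and VIM kept their direction in all 15 alternatives run; KRT19 kept it in 14 and reversed with quantile normalization, at 0.026 (adjusted p = 0.914; the cause was not tested). The number of genes past an adjusted p of 0.05 in limma was 0 with all libraries and ranged from 0 to 297 when libraries were left out. It was 297 without exosome replicate 2, 1 without control replicate 3, and 58 when both libraries numbered 2 were absent, an alternative chosen after seeing the data. With libraries left out the log2 change of SPRP ranged from -1.17 to -0.93, and it passed the threshold in 2 of these fits, without exosome replicate 2 (-1.17) and when both libraries numbered 2 were absent (-1.07). The difference of KRT14 and KRT9 against KRT8 and KRT19 was -0.37, and came to -0.49 with quantile normalization and -0.19 with all 8 keratins, both chosen after seeing the data. With the replicate number as a block 0 genes passed, and KRT14, KRT9 and SPRP each had an adjusted p of 0.0984. Whether the numbers pair the libraries is not known. Correlations of deviations of same-numbered libraries were 0.161, 0.144 and -0.0701, and those of differently numbered ones ranged from -0.271 to 0.169. With 3 libraries per group these values cannot decide it. The block lowered the SE of KRT14, KRT9, SPRP and VIM and raised that of KRT8 and KRT19. Without counts, the precision of low genes such as KRT5 is unknown.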

Other observations

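Hemidesmosomes fasten keratin filaments to the basement membrane. Of 9 genes listed, 8 had values, with a median log2 change of -0.024, 6 lower and 2 higher (median -0.098 without exosome replicate 2), and 0 passed over all genes tested in limma. Unadjusted, 0 were lower and 0 higher at p under 0.05, against 7.5% and 5.06% of all genes tested. With 8 genes nothing is read from this count. COL17A1, a transmembrane collagen of the hemidesmosome, was at 805.0 ± 74.3 FPKM in exosome and 814.4 ± 27.2 FPKM in control libraries (SD, n = 3 each). ITGA6, the integrin subunit that pairs with ITGB4 there, was at 705.8 ± 23.0 FPKM in exosome and 746.9 ± 69.0 FPKM in control libraries. DST, a plakin that links filaments to the plaque, was at 12.01 ± 1.56 FPKM in exosome and 10.3 ± 1.09 FPKM in control libraries, and CD151 at 399.9 ± 40.7 and 420.2 ± 6.93 FPKM in exosome and control libraries. In all 4 the groups overlapped.

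Of 10 genes that often accompany VIM in mesenchymal cells or change with it, 5 had values. Their median log2 change was -0.00395, with 3 lower and 2 higher (0 lower and 5 higher under quantile normalization, and a median of -0.060 without exosome replicate 2), and 0 passed in limma. Unadjusted, 0 were lower and 0 higher at p under 0.05, against 7.5% and 5.06% of all genes tested. With 5 genes nothing is read from this count. FN1, fibronectin, had 29.4, 42.6 and 26.4 FPKM in the exosome libraries, against 28.8, 31.5 and 30.1 FPKM in the control libraries. Its log2 change of 0.089 took its direction from exosome replicate 2, and was -0.11 without that library. LGALS1, galectin 1, was at 2706 ± 274 and 2829.9 ± 68.0 FPKM in exosome and control libraries (SD, n = 3 each).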
